A study of Mus musculus with 6 samples.

Results

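The TNF superfamily ligands and receptors described here are 10 genes, Tnf, Ltb, Tnfsf9, Tnfsf10, Tnfsf12, Tnfsf13, Tnfsf13b, Tnfrsf1a, Tnfrsf1b and Tnfrsf11a, taken by their symbol from the 26110 genes of the normalized RNA-seq table. They were measured in 6 bulk libraries of cells sorted from the muscularis externa (ME), the outer muscle layer, of the small bowel. The cells had high surface MHCII and were divided by CX3CR1, the fractalkine receptor, into 3 CX3CR1- and 3 CX3CR1+ libraries. All mice carried the genotype CX3CR1+/GFP, in which 1 copy of the receptor gene is replaced by a green fluorescent reporter under the same promoter, and none had received a treatment. Tissue of several mice was pooled and digested with enzymes before sorting, and no source used here says that each library had a pool of its own. P-values therefore measure the spread between libraries, which may be technical. In the labels the cell type is given as dendritic cell, while the study treats both populations as macrophages.

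Ligands of this superfamily are made as trimers on the cell surface, and several are cut free by proteases. Their receptors either carry a death domain, which can lead to caspase activation, or bind TRAF adaptors, which lead to NF-kappaB and MAP kinase signalling. In the gut muscle layer, TNF from resident macrophages is known as an early inflammatory signal, while BAFF and APRIL are known for keeping B cells and plasma cells alive and RANK for its part in the differentiation of myeloid cells.

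Values are read counts estimated per gene and normalized between libraries by the authors, so they compare libraries for 1 gene, and genes only after division by transcript length. The libraries held about 5346381 to 17616761 reads, and 3 reads, the level under which a value was treated as not measurable, corresponded to a normalized value of 1.39 to 5.36. Mitochondrial genes took 51.65 ± 3.76% of the CX3CR1- values and 19.58 ± 1.55% of the CX3CR1+ values (SD, n = 3 each). Cx3cr1 itself, the gene of the sort gate, had values of 23.2, 18.9 and 28.5 in CX3CR1- and of 371, 380 and 347 in CX3CR1+ cells. All 10 macrophage markers were called lower in CX3CR1- cells, and their sum ranged from 7197 to 7974 there and from 37228 to 41763 in CX3CR1+ cells. In contrast, 9 of 10 conventional dendritic cell markers were called higher in CX3CR1- cells, with sums of 5594 to 6435 against 426 to 480, and none of them was at 0 in every CX3CR1+ library. The CX3CR1- libraries also held more of all 7 epithelial markers (sums of 15726 to 26926 against 20.2 to 39.8) and of all 6 fibroblast markers (4117 to 12168 against 180 to 316). The part of these cells and of RNA quality in the results given here was not tested, and in bulk libraries fewer cells of a type and less RNA per cell cannot be told apart.

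A gene was called when its log2 fold change, CX3CR1- minus CX3CR1+, was at least 1 in size and its adjusted p in limma, with Benjamini-Hochberg adjustment over all 17812 genes with a mean of at least 10, was at most 0.05. Of the 10 members, 9 passed that filter on low values and Ltb did not. Called lower in CX3CR1- cells were 3 members, Tnf, Tnfsf13b and Tnfrsf11a, and called higher were 0, against 8.15% called lower and 12.2% called higher among all tested genes. At the adjusted p alone, 5 members were lower, the 3 above with Tnfsf12 and Tnfrsf1b (11.0% of all tested genes were lower by that rule), and 0 were higher. In the same 5 members the 3 CX3CR1- values lay under all 3 CX3CR1+ values, as they did in 19.8% of all tested genes. The log2 fold change was below 0 in 8 of the 9 members, with Tnfsf10 above it, against 50.2% of all tested genes. The median over the 9 members was -0.90, beside a median of -0.0035 over all tested genes. With 3 libraries against 3, the smallest p of an exact two-sided permutation test is 0.1, which is the value of each of the 5 members with separate groups.

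**Figure D1:**
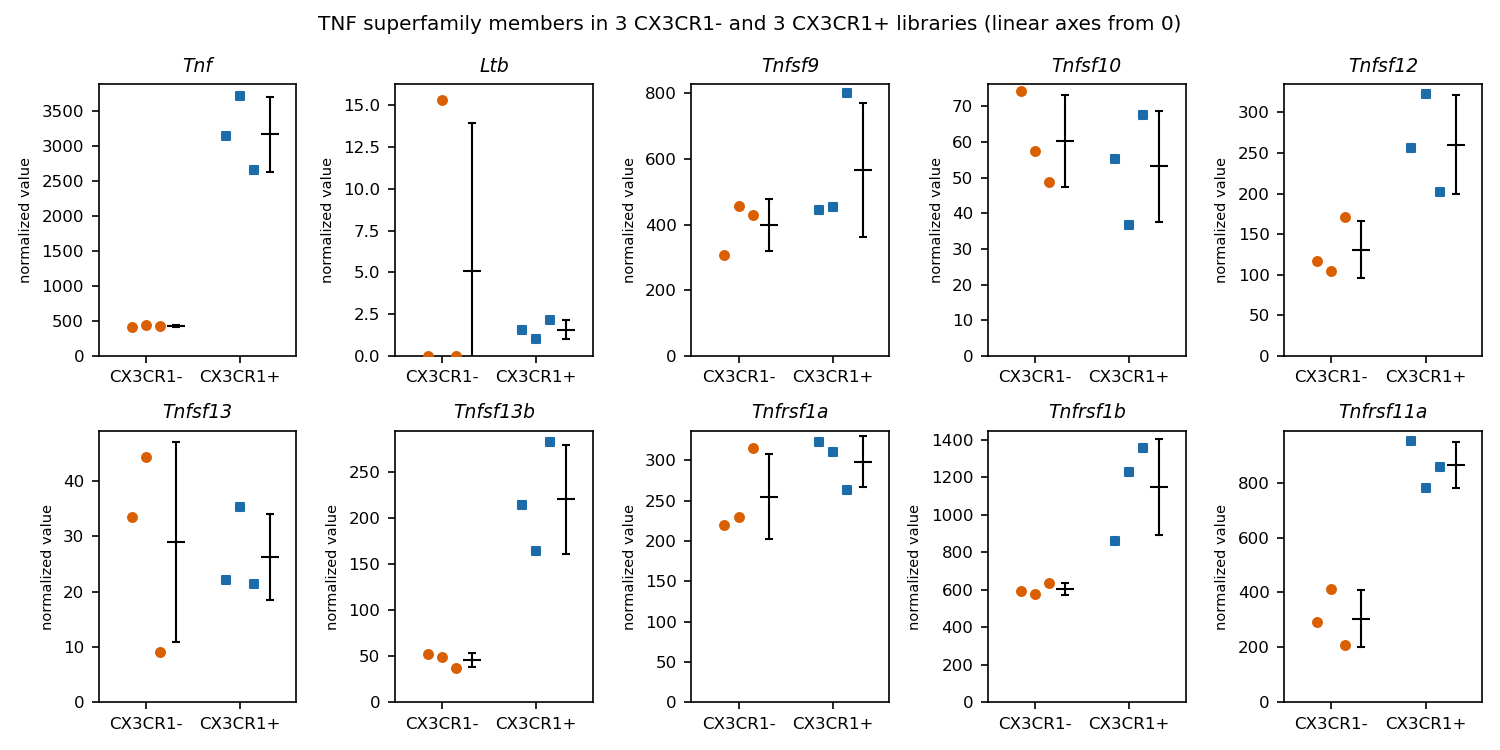
Normalized value (vertical axes, linear from 0) of each of the 10 members in the 3 CX3CR1- libraries (orange circles) and the 3 CX3CR1+ libraries (blue squares), with the mean and SD of each group as a black bar, cut at 0. The groups of Tnf, Tnfsf12, Tnfsf13b, Tnfrsf1b and Tnfrsf11a are separate, while those of the other 5 members overlap.

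The upstream sequences of the 3 called members are shown because these members were lower in the same 3 libraries. RefSeq start sites on GRCm38.p6 were matched for 8 of the 10 members, in 9 windows, and entries for Tnfsf9 and Tnfsf12 were missing. The 250 bases before the start were searched on both strands for 4 motifs. The AP-1 motif was spelled TGANTCA. For the macrophage and B cell factor PU.1 the core GAGGAA was used, and for the box where the basal transcription machinery binds, TATAAA. The kappaB motif of NF-kappaB was searched as its usual degenerate consensus, and no motif contains another. Capitals mark the matches, which are descriptions of letters and not of binding.
Tnf, chr17:35202008-35202257, minus strand: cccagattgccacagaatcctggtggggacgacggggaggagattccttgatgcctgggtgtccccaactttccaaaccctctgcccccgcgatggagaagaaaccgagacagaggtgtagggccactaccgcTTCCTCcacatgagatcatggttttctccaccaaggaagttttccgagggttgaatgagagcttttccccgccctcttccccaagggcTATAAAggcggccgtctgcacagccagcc
Tnfsf13b, chr8:10006217-10006466, plus strand: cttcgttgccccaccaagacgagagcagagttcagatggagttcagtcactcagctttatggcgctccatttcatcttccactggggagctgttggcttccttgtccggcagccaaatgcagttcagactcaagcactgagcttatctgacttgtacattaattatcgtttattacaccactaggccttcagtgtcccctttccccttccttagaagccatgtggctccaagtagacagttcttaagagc
Tnfrsf11a, chr1:105780473-105780722, plus strand: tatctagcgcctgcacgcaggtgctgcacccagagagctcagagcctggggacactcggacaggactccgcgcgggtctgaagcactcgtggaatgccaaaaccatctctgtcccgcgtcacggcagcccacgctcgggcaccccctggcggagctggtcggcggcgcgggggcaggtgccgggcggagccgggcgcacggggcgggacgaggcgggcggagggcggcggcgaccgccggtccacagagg

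The Tnf window held TATAAA, which 12.4% of the 32851 RefSeq promoter windows also held, and the PU.1 core on its reverse strand as TTCCTC, which 23.3% held. These motifs lay 29 and 117 bases before the start, and the PU.1 core was also found in the windows of Ltb and Tnfrsf1b. The printed windows of Tnfsf13b and Tnfrsf11a held none of the 4 motifs. TGANTCA, found in 6.75% of all windows, occurred at a further start of Tnfsf13b and in the window of Tnfsf13, and the kappaB motif, found in 5.0%, occurred among the 9 windows in that of Ltb.

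Tnf, the founding ligand of the family and a strong inflammatory cytokine, is encoded at chr17:35199381-35202007 on the minus strand (GRCm38, as are all gene positions here). Its normalized value was 414, 443 and 433 in CX3CR1- cells, replicates 1 to 3, compared with 3138, 3716 and 2652 in CX3CR1+ cells. Every CX3CR1- value was thus several times under the lowest CX3CR1+ value, and the CX3CR1- libraries were close to each other. The group means were 430 ± 14.8 and 3168 ± 533 (SD, n = 3), and the log2 fold change was -2.86 with an SE of 0.17 (limma, adjusted p = 4.4e-06). By its p-value Tnf stood at rank 44 of the 17812 tested genes, and by the size of the fall at rank 174. The macrophage markers, whose most abundant genes were Csf1r, C1qb and C1qc, fell with it, with log2 fold changes from -3.92 to -1.82. Tnf lay within that range, and these 3 genes, at -2.42, -2.28 and -2.40, fell less than Tnf. Cx3cr1 at -3.92 and Adgre1 at -3.14 fell more, C1qa at -2.88 fell about as much, and the remaining markers fell less. Expressed as a share of the summed macrophage markers of the same library, a measure chosen after the values were seen, Tnf was 5.43 to 5.76% in CX3CR1- and 7.12 to 8.90% in CX3CR1+ libraries, so that the groups were separate on this measure too. That sum is led by Csf1r, C1qb and C1qc. The separation is therefore shown for that sum alone, and whether the groups separate with other markers was not tested.

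Ltb, lymphotoxin beta, which anchors secreted lymphotoxin alpha to the membrane, lies 3060 bases from Tnf at chr17:35194439-35196320. Its values were 0, 15.3 and 0 in CX3CR1- and 1.5, 1.0 and 2.2 in CX3CR1+ cells. The single higher value came from about 8.55 reads in CX3CR1- replicate 2, and 4 of the 6 libraries were at or under 3 reads, so Ltb was hardly measurable in either population and no fold is given. Lta, on the other side of Tnf at a distance of 1157 bases, was represented by about 2, 6 and 7 reads in CX3CR1- cells and by 0 in each CX3CR1+ library. Tnf was therefore the 1 gene of this cluster of 3 with substantial RNA in either population.

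Of the genes that act on TNF release, Adam17, the protease that cuts membrane TNF, and Rhbdf2, the iRhom that carries this protease to the cell surface, were called lower in CX3CR1- cells. Adam17 was at 570, 808 and 433 against 1707, 2042.6 and 1736, a log2 fold change of -1.64 (limma, SE 0.23, adjusted p = 0.00052). Rhbdf2 was at 98.7, 136 and 112 against 304, 397 and 374 (log2 fold change -1.63). Timp3, an inhibitor of that protease, went the other way, with 1212, 579 and 1038 in CX3CR1- and 149, 175 and 184 in CX3CR1+ libraries (log2 fold change 2.41, SE 0.28, adjusted p = 0.00016). Timp3 shares 21.2% of its 31-base words with Syn3, which overlaps it, and fibroblast markers moved in the same direction as Timp3. The other 4 of the 7 shedding genes were not called, beside 8.15% called lower and 12.2% called higher among all tested genes.

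TNF mRNA is short-lived, and Zfp36, which encodes tristetraprolin and binds AU-rich elements of that mRNA, was called lower in CX3CR1- cells. It was at 22526, 23155 and 22136 in CX3CR1- and at 54165, 60469 and 60124 in CX3CR1+ libraries, a log2 fold change of -1.36 (limma, SE 0.11, adjusted p = 2e-05). Its paralog Zfp36l1 was also called lower (log2 fold change -1.25), although 53.2% of its 31-base words occur in Gm26669 too and its reads are to that extent uncertain, and quantile normalization brought it to -0.72, short of the threshold. All 7 genes of the mRNA stability list had a log2 fold change below 0, with a median of -0.70, and 2 of them were called. Among all tested genes 50.2% were below 0 and 8.15% were called lower, with a median of -0.0035.

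**Figure D2:**
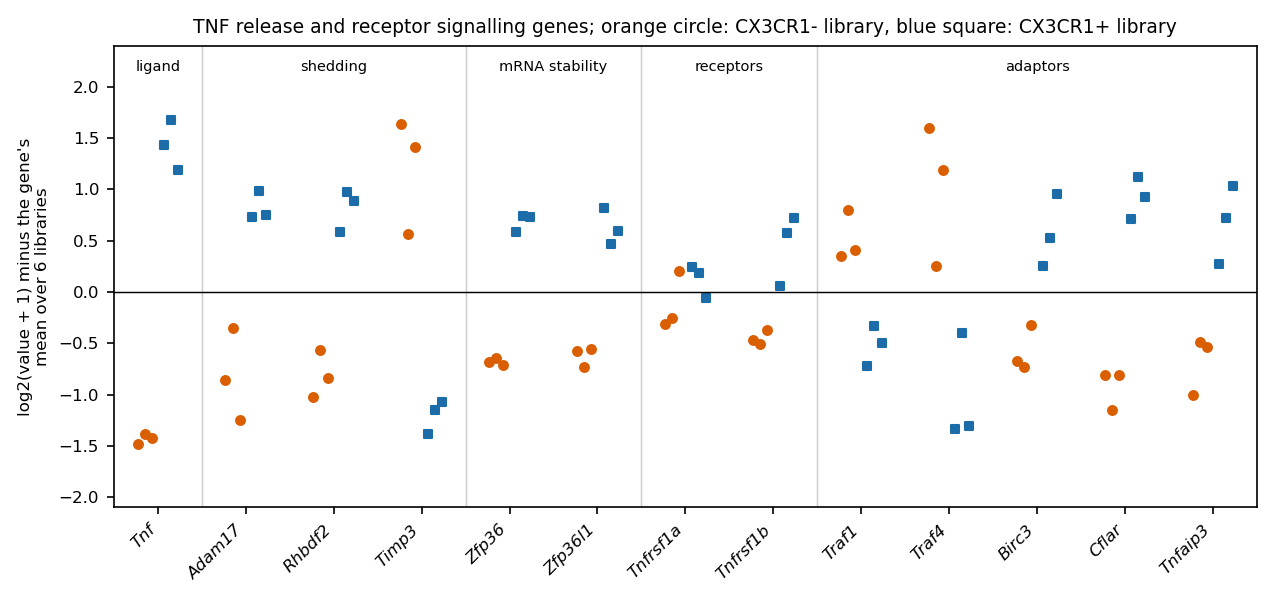
For Tnf, its receptors and every called gene of the shedding, mRNA stability and adaptor lists, the log2(value + 1) of each library minus the mean of the gene over the 6 libraries (vertical axis); orange circles are CX3CR1- and blue squares CX3CR1+ libraries. Timp3, Traf1 and Traf4 lie higher in CX3CR1- libraries, the groups of Tnfrsf1a overlap, and the remaining genes lie lower in CX3CR1- libraries.

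Both TNF receptors were expressed. Tnfrsf1a (chr6:125349362-125362484), the death domain receptor of soluble TNF, was at 220, 229 and 315 in CX3CR1- and at 323, 310 and 263 in CX3CR1+ libraries. The groups overlapped through CX3CR1- replicate 3, and the log2 fold change of -0.24 did not pass the test (limma, SE 0.22, adjusted p = 0.48), with a 95% interval from -0.74 to 0.25. Tnfrsf1b (chr4:145213463-145246870), the TRAF-binding receptor that responds best to membrane TNF, was at 595, 580 and 638 against 861, 1229 and 1356. All 3 CX3CR1- values were lower, and the log2 fold change of -0.90 passed the adjusted p (limma, SE 0.20, 0.0082) but stayed short of the fold threshold. Without CX3CR1+ replicate 1 it was -1.10 and called, and with quantile normalization it was -0.59 and did not pass. Its adjusted p ranged from 0.00475 to 0.0588 over the alternatives. The macrophage marker sum fell further than Tnfrsf1b, so that Tnfrsf1b was 7.40 to 8.27% of that sum in CX3CR1- and 2.12 to 3.64% in CX3CR1+ libraries.

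Behind these receptors, 28 adaptor and kinase genes were tested, of which 3 were called lower and 2 higher, with a median log2 fold change of -0.07. Among all tested genes 8.15% were called lower and 12.2% higher, so these counts were near the background. Lower were Cflar, which encodes the caspase-8 inhibitor cFLIP, Tnfaip3, which encodes the ubiquitin-editing inhibitor A20, and Birc3, which encodes the ubiquitin ligase cIAP2. Cflar was at 1178, 927 and 1174 against 3376, 4488 and 3918 (log2 fold change -1.84, SE 0.17, limma adjusted p = 4.1e-05). Tnfaip3 was at 2352, 3353 and 3247 against 5669, 7774 and 9629 (log2 fold change -1.35), and Birc3 at 1273, 1227 and 1624 against 2413, 2922 and 3943 (log2 fold change -1.15). Higher were the adaptors Traf1, at 747, 1016 and 778 against 355, 464 and 415 (log2 fold change 1.04), and Traf4, at 50.8, 19.5 and 38.0 against 5.8, 12.0 and 5.9 (log2 fold change 2.03). Traf1 fell short of the fold threshold without CX3CR1- replicate 2 (0.90) or CX3CR1+ replicate 1 (0.93), and with library quality weights. Birc3 did so without CX3CR1+ replicate 3 (-0.96), with equal totals (-0.98) and with quantile normalization (-0.71), and Tnfaip3 with quantile normalization (-0.84). Traf4 lost its call without CX3CR1- replicate 1 or 3 and without CX3CR1+ replicate 1 or 3, with log2 fold changes from 1.74 to 1.94, and with quantile normalization (1.56), and with a pseudocount of 10 its log2 fold change was 1.32.

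Tnfsf13b (chr8:10006467-10039072) encodes BAFF, a survival factor for B cells. It was at 52.3, 49.0 and 37.1 in CX3CR1- and at 214, 164 and 282 in CX3CR1+ libraries. The highest CX3CR1- value was well under the lowest CX3CR1+ value, and the log2 fold change was -2.21 (limma, SE 0.29, adjusted p = 0.00042). As a share of the macrophage marker sum, however, Tnfsf13b was 0.466 to 0.727% in CX3CR1- and 0.394 to 0.758% in CX3CR1+ libraries, and the groups overlapped.

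The BAFF receptor gene Tnfrsf13c had the opposite direction. It was at 242, 342 and 250 in CX3CR1- and at 14.9, 20.6 and 21.4 in CX3CR1+ libraries, a log2 fold change of 3.80 (limma, SE 0.30, adjusted p = 1.7e-05). Of the 8 B cell markers, 7 were called higher in CX3CR1- cells, led in abundance by Pax5, Cd79a and Fcer2a. Their sum was 935 to 1328 in CX3CR1- and 113 to 132 in CX3CR1+ libraries. The part of B cells in the Tnfrsf13c difference was not tested. Tnfrsf13b, the receptor TACI, which binds BAFF and APRIL, was at 128, 192 and 130 against 201, 187 and 141, with overlapping groups and a log2 fold change of -0.24 (limma, SE 0.26, adjusted p = 0.57). Tnfrsf17, the receptor BCMA of plasma cells, was low, at 6.3, 8.9 and 15.96 in CX3CR1- and 12.0, 20.5 and 4.2 in CX3CR1+ cells.

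Tnfsf13 (chr11:69682846-69685784) encodes APRIL, the other ligand of TACI and BCMA. It was at 33.6, 44.4 and 9.0 in CX3CR1- and at 22.1, 35.2 and 21.4 in CX3CR1+ libraries. The CX3CR1- libraries included both the highest and the lowest value, and the log2 fold change of -0.08 had an SE of 0.58 (limma, adjusted p = 0.94), so that a fall or a rise by more than the fold threshold lay within its 95% interval of -1.38 to 1.22. Tnfsf13 lies 465 bases from Tnfsf12 (chr11:69686250-69695849), which encodes TWEAK, and both are overlapped by the read-through gene Tnfsfm13. With it Tnfsf13 shares 58.4% and Tnfsf12 47.4% of their 31-base words, which makes the division of reads between these genes uncertain.

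**Figure D3:**
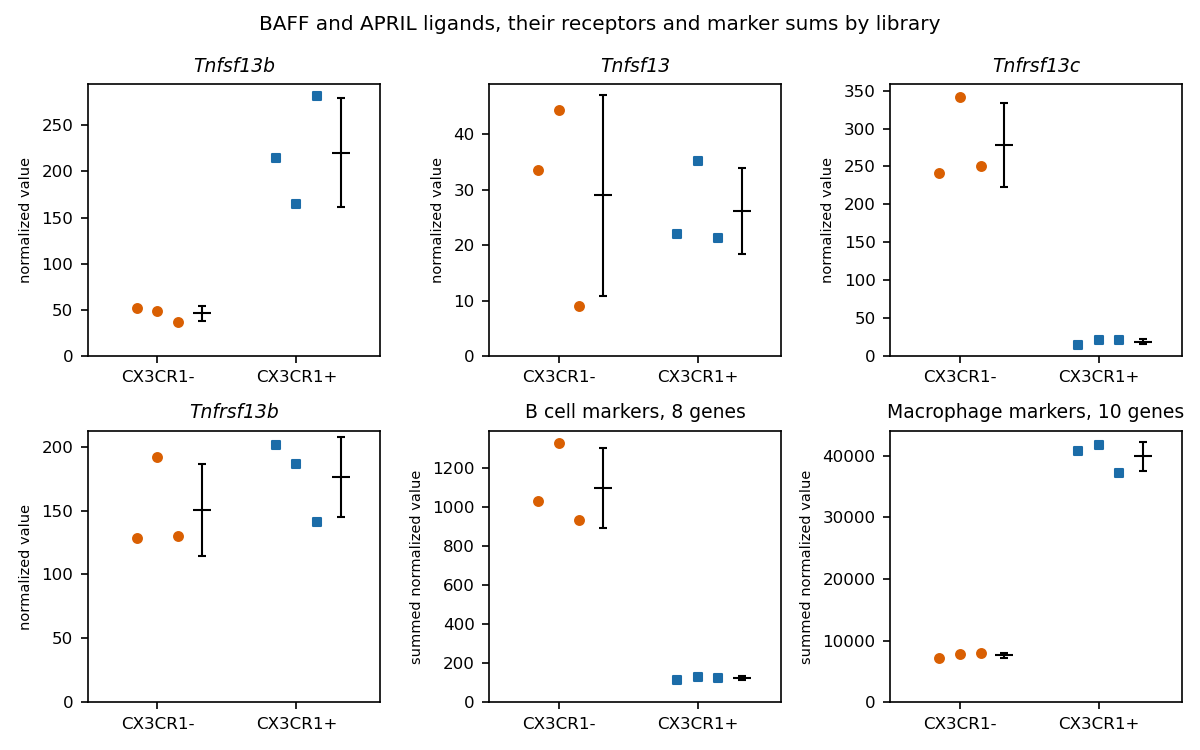
Normalized values of Tnfsf13b, Tnfsf13, Tnfrsf13c and Tnfrsf13b, and the summed values of 8 B cell and 10 macrophage markers, by library (vertical axes, linear from 0; orange circles CX3CR1-, blue squares CX3CR1+, black bars mean and SD). Tnfsf13b lies lower in CX3CR1- libraries, as the macrophage sum does, and Tnfrsf13c lies higher, as the B cell sum does, while the groups of Tnfsf13 and Tnfrsf13b overlap.

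Tnfsf12, TWEAK, a ligand linked to tissue repair, was at 116, 105 and 171 in CX3CR1- and at 256, 323 and 202 in CX3CR1+ libraries. All CX3CR1- values were lower, and the log2 fold change of -0.99 passed the adjusted p (limma, SE 0.28, 0.025) but fell just short of the fold threshold. Over the alternatives its adjusted p ranged from 0.0136 to 0.124 and was above 0.05 in 6 of 15, among them those without CX3CR1- replicate 1 or 2 and without CX3CR1+ replicate 1 or 2. Without CX3CR1- replicate 3 (-1.20) or CX3CR1+ replicate 3 (-1.16) it was called. The TWEAK receptor gene Tnfrsf12a, which encodes Fn14, was called lower as well, at 71.6, 121 and 155 against 204, 302 and 227 (log2 fold change -1.12, SE 0.31, limma adjusted p = 0.025). Its call was lost in 6 of 15 alternatives, among them those without CX3CR1- replicate 1, where the log2 fold change was -0.81, and without each CX3CR1+ replicate.

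Tnfsf9 (chr17:57105325-57107757), the ligand of the T cell costimulator CD137, was at 308, 458 and 428 in CX3CR1- and at 445, 453 and 802 in CX3CR1+ libraries. CX3CR1+ replicate 3 stood above the other 5 libraries, which overlapped, and the log2 fold change of -0.47 did not pass the test (limma, SE 0.27, adjusted p = 0.24). Of its 31-base words 12.9% are shared with the overlapping gene Gm11110. Its receptor gene Tnfrsf9 was at 4.1, 7.1 and 25.8 against 1.5, 1.3 and 3.4 and was not tested at this low level.

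Tnfsf10 (chr3:27317028-27342427) encodes TRAIL, which triggers apoptosis through a death receptor. It was at 74.3, 57.4 and 48.9 in CX3CR1- and at 55.4, 36.7 and 67.5 in CX3CR1+ libraries, with overlapping groups and a log2 fold change of 0.20 (limma, SE 0.34, adjusted p = 0.73). Its death receptor gene Tnfrsf10b was at 86.5, 59.7 and 82.9 against 65.1, 59.8 and 43.7, which did not pass the test either (limma, log2 fold change 0.44, adjusted p = 0.36). The decoy receptor genes Tnfrsf22 and Tnfrsf23, which share 25.5% and 26.6% of their 31-base words with each other, were not called. Tnfrsf11b, osteoprotegerin, a soluble decoy for TRAIL and for the RANK ligand, had values of 18.8, 5.4 and 15.96 in CX3CR1- cells and 0 in each CX3CR1+ library. With 4 of the 6 libraries at or under 3 reads, it was not tested at this low level.

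Tnfrsf11a (chr1:105780718-105847981) encodes RANK, the receptor through which RANK ligand drives osteoclast and dendritic cell responses. It was at 293, 413 and 207 in CX3CR1- and at 950, 782 and 858 in CX3CR1+ libraries. The groups were well separated, and the log2 fold change was -1.55 (limma, SE 0.25, adjusted p = 0.0014). Relative to the macrophage marker sum the order of the groups was turned, with 2.60 to 5.28% in CX3CR1- and 1.87 to 2.33% in CX3CR1+ libraries. For Tnfsf9, Tnfsf10, Tnfsf12, Tnfsf13, Tnfrsf1a and Tnfrsf1b too, all CX3CR1- shares lay above all CX3CR1+ shares, and of the 10 members only Tnf had separate groups with the CX3CR1- libraries lower on that measure. The summed markers are led by Csf1r, C1qb and C1qc, which fell less than Tnf, while Cx3cr1 (-3.92) and Adgre1 (-3.14) fell more. These orders are therefore shown for that sum alone, and shares of other markers were not tested. The RANK ligand gene Tnfsf11 was not among the genes with values, so it could not be examined.

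**Figure D4:**
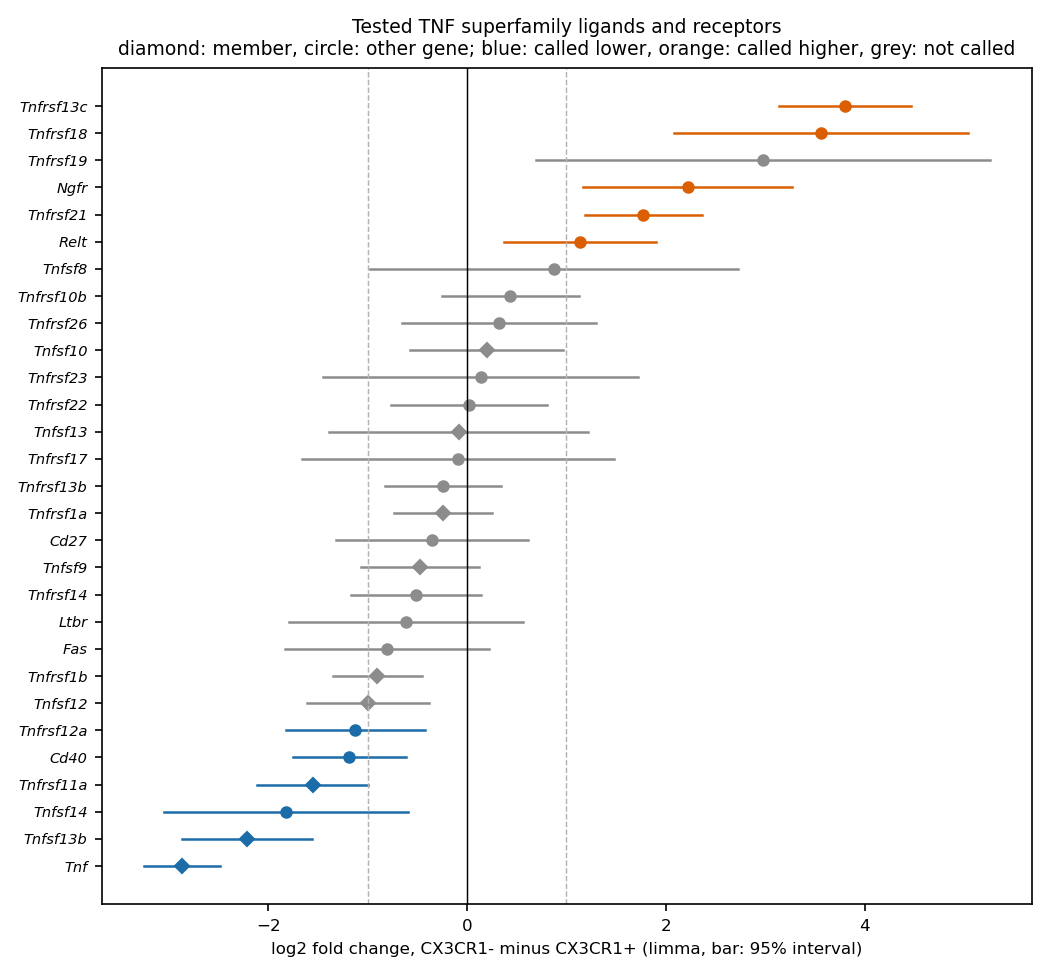
Log2 fold change, CX3CR1- minus CX3CR1+ (horizontal axis), with its 95% interval from limma for all tested ligands and receptors of the superfamily, members as diamonds and other genes as circles; blue marks genes called lower, orange genes called higher and grey genes not called. Tnf at -2.86 and Tnfsf13b at -2.21 lie at the lower end, and Tnfrsf13c at 3.80 lies at the upper end.

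Among the ligands outside the 10 members, 2 of the 8 listed were tested, and Tnfsf14, which encodes LIGHT, was called lower at 4.2, 8.9 and 9.97 against 19.9, 26.2 and 42.5 (log2 fold change -1.82, SE 0.55, limma adjusted p = 0.036). That call was lost without CX3CR1- replicate 1 and without each CX3CR1+ replicate, with log2 fold changes from -2.06 to -1.48, and a pseudocount of 10 reduced the fold change to -1.14. Of the 23 other receptors listed, 18 were tested. Besides Tnfrsf12a, Cd40, the costimulatory receptor of antigen-presenting cells, was called lower at 187, 263 and 230 against 363, 594 and 625 (log2 fold change -1.19, SE 0.26, limma adjusted p = 0.0071). Called higher were 5 receptors, namely Tnfrsf13c, Tnfrsf18, Ngfr, Tnfrsf21 and Relt. Among all tested genes 12.2% were called higher and 8.15% lower. Tnfrsf18, the costimulator GITR of regulatory T cells, was at 23.8, 53.3 and 27.1 against 0.7, 2.9 and 2.4 (log2 fold change 3.56), with 21.9% of its 31-base words in the overlapping gene Gm16008. Its CX3CR1+ values lie near the level of 3 reads, and its log2 fold change was 1.84 with a pseudocount of 10. The sum of the T, NK and innate lymphoid markers moved the same way, with 574 to 725 against 134 to 216 and 3 of 11 listed genes at 0 in all CX3CR1+ libraries. Il7r and Cd2 were called higher, but the T cell gene Cd3d was not (log2 fold change 0.07, limma adjusted p = 0.92). The part of these cells was not tested. Tnfrsf21, the death receptor DR6, was at 367, 560 and 315 against 136, 112 and 103 (log2 fold change 1.78, SE 0.26, limma adjusted p = 0.00081). Ngfr, the low-affinity neurotrophin receptor, was at 152, 60.8 and 92.7 against 12.5, 35.3 and 17.0 (log2 fold change 2.22), beside sums of the neuron and glia markers of 115 to 434 against 78.4 to 85.7. Relt, at 139, 105 and 63.3 against 47.5, 43.9 and 39.9 (log2 fold change 1.14), lost its call in 7 of 15 alternatives, among them those without CX3CR1- replicate 1 or 2 and without each CX3CR1+ replicate. The median log2 fold change of these 18 receptors was 0.08, and the lymphotoxin beta receptor gene Ltbr, at 103, 76.0 and 24.5 against 52.7, 131 and 102, was not called.

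To compare members with each other, values were divided by the length of the longest coding transcript. Shorter coding transcripts are annotated too, at 1239 against 4771 bases for Tnfsf13b and 989 against 4993 for Tnfsf10. The order of the members may change with the transcript used, which was not tested. Per kb, Tnf was the highest member in CX3CR1+ cells at 1933 ± 325 (SD, n = 3), and its lowest library, at 1618, was above every library of the other members. Tnfsf9 and Tnfrsf1b followed at 439 and 301 with overlapping ranges, then Tnfsf12 at 181, Tnfrsf11a at 172 and Tnfrsf1a at 138. The ranges of Tnfsf12 overlapped those of both receptors after it. Tnfsf13b stood apart at 46.2, and Tnfsf13 at 17.4 and Tnfsf10 at 10.7 were lower with ranges from 14.2 to 23.4 and from 7.35 to 13.5. In CX3CR1- cells Tnfsf9 and Tnf led at 308 and 262 per kb and did not differ beyond their spread, and Tnfrsf1b followed at 158. After it came Tnfrsf1a at 118, Tnfsf12 at 91.2 and Tnfrsf11a at 60.6, with the range of Tnfsf12 overlapping those of both receptors. Tnfsf13 at 19.3, Tnfsf10 at 12.1 and Tnfsf13b at 9.67 also had overlapping ranges, so that Tnfsf13b moved from the seventh place in CX3CR1+ to the ninth in CX3CR1- cells, and Ltb was the last in both.

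**Figure D5:**
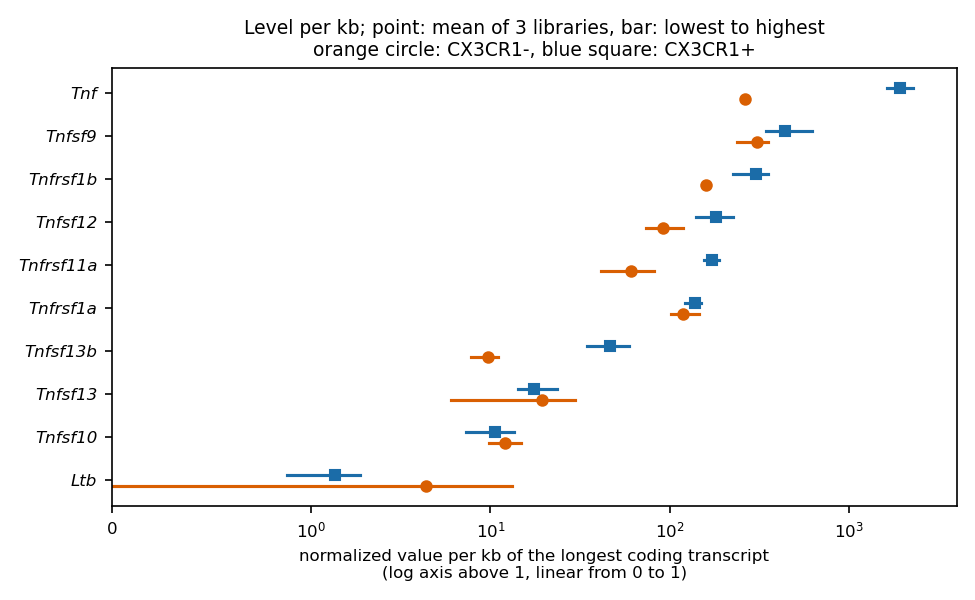
Normalized value per kb of the longest coding transcript (horizontal axis, logarithmic above 1 and linear from 0 to 1) of the 10 members, as the mean (point) and the lowest to highest of 3 libraries (bar), for CX3CR1- (orange circles) and CX3CR1+ cells (blue squares). Tnf leads in CX3CR1+ cells at 1933, while Tnfsf9 at 308 and Tnf at 262 lie together in CX3CR1- cells.

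The genes most alike in profile were sought for the 4 members with the smallest adjusted p, among 10207 genes, by Pearson's r of log2 values over the 6 libraries. These libraries fall into 2 groups, so r describes the difference between the groups together with the order within them. Tnf was most like Gpr34, a receptor gene of tissue macrophages and microglia, and Aif1, which encodes IBA-1, both with r = 0.999, and 726 genes had an r above 0.95 with it. Tnfsf13b was most like Gm43305 and Ifi203 (r = 0.997 and 0.996) and Tnfrsf11a like Npl and Ccdc86 (r = 0.996 each). Tnfrsf1b was most like Ankrd17 and Gm42857 (r = 0.998 and 0.996). An r above 0.95 was reached by 394 genes for Tnfsf13b, 308 for Tnfrsf11a and 180 for Tnfrsf1b. The size of a change does not enter r. Gm43305 had a log2 fold change of -0.99 beside -2.21 for Tnfsf13b, while Npl, at -1.54, was close to Tnfrsf11a at -1.55.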

How the data were processed

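Bulk RNA of 6 libraries, 3 of CX3CR1- and 3 of CX3CR1+ cells, grouped by sample title, was analysed. The authors pseudoaligned 75 bp single reads with Kallisto to GENCODE M16 transcripts (mm10), summed estimated counts per gene with tximport and scaled the libraries with DESeq2. What they deposited is therefore a normalized signal, not counts. In each library 42.6 to 44.7% of the nonzero values were multiples of a step (tolerance 0.01), so no count test was run. The step was the smallest of the 6 commonest values of the library. It gave the approximate depth, and intervals on that depth would cover counting error only.

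Genes with a mean of at least 10 were tested with limma 3.58.1 (R 4.3.3, eBayes with trend, two-sided) on log2(value + 1). Fold changes on this scale understate the change of low genes. The fit was tested on simulated data, whose spread between libraries was taken from these libraries after a first, assumed spread had missed the recovery aimed for. Pathway lists of ligands, receptors, adaptors, shedding and mRNA stability, and marker lists of 12 cell types, were written by hand; members and lists were chosen with earlier results of these data known. Named are all members, called pathway genes, partners of members, the gate gene and at most 3 abundant markers per list. Added to these are 2 genes alike in profile for 4 members, and macrophage markers that fell as much as Tnf or more. Counts up to 5 are also spelled out. Monocyte markers were called higher in CX3CR1- cells for 4 of 5 genes, T, NK and innate lymphoid markers for 4 of 6 tested, plasma cell markers for 3 of 5 (1 lower), smooth muscle for 0 of 5, neuron and glia for 2 of 5 tested, endothelium for 3 of 5 (1 lower) and granulocytes for 1 of 1. Positions, lengths and shared 31-base words came from GENCODE M21 (GRCm38). Alternatives covered pseudocounts, filters, scaling, the variance prior, library weights and each library left out.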

Additional observations from a re-analysis of the deposited data

How the results depend on the processing

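Over 15 alternatives, with a replicate block given separately, 3 to 4 members were called lower and 0 higher, and Tnf (log2 fold change -2.99 to -2.55), Tnfsf13b (-2.40 to -2.01) and Tnfrsf11a (-1.80 to -1.30) were called in each. Leaving out 1 library at a time gave 3 to 4 members called lower, 5 to 6 with separate groups, 1005 to 1570 genes called lower and 1693 to 2292 called higher, and 7 to 10 other TNF pathway genes called lower and 5 to 7 called higher, against 10 and 8 with all libraries. Tested among those pathway genes were 2 ligands, 18 receptors, 28 adaptors and kinases, 7 shedding and 7 mRNA stability genes. With all libraries 8.15% of all tested genes were called lower and 12.2% higher. A mean of at least 50 left 1232 genes called higher, against 2177, and Tnfsf13 was not tested there. Tnfsf10 changed sign under quantile normalization (-0.093) and without CX3CR1+ replicate 2 (-0.043), with -0.043 to 0.39 over the libraries left out. Tnfsf13 changed sign with equal totals (0.080), without CX3CR1- replicate 3 (0.58) and without CX3CR1+ replicate 2 (0.14), with -0.51 to 0.58 over the libraries left out. The cause was not tested. Tnfsf12 was called in 4 alternatives. Of 401 values of 27 named genes, 360 kept direction and call, 31 lost the call, 5 gained it and 5 changed sign. Quantile normalization moved the median of all genes to -0.15 and equal totals without mitochondrial genes to 0.16, and the share of higher genes among those called was 60.0% as deposited, 51.1% at a mean of at least 50, 50.6% with quantile normalization and 69.0% with equal totals. The labels give library numbers that the 2 groups do not share. A replicate block of libraries with adjacent numbers, added after the data were seen, gave 3 members, 1445 genes and 10 other pathway genes called lower and 0, 2165 and 8 called higher, and all 27 named genes kept direction and call. The labels link such libraries by their numbers alone, and no source used here says whether they came from the same pool of mice. The correlations of their deviations from the group means were 0.104, 0.038 and 0.014. Those of libraries without adjacent numbers ran from -0.083 to 0.040, the highest for CX3CR1- replicate 3 with CX3CR1+ replicate 2. Depth leaves Ltb and Lta near the level of single reads.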
